A study of Mus musculus with 6 samples.

Results

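The 10 genes described here encode both parts of the BCR-ABL fusion kinase (Abl1 and Bcr), the adaptors that pass its signal on (Grb2, Gab2, Shc1, Crkl and the exchange factor Sos1) and adaptors that restrain it (Cbl, Dok1 and Dok2). They were taken by gene symbol from a table of 22099 genes, in which they held 13 RefSeq transcript rows, and the rows of a gene were summed. The 6 libraries came from C57BL/6 mouse bone marrow, transduced whole at day 0 with a retrovirus that carries BCR-ABL-p185 and, behind an internal ribosome entry site, YFP, and kept in culture for 14 days. There were 2 biological replicates each of 3 genotypes: wild type (wt), Ikaros_ZnF1-/- (ZnF1 mutant) and Ikaros_ZnF4-/- (ZnF4 mutant), the last 2 lacking 1 zinc finger each of the transcription factor Ikaros. All groups carry the oncogene, so no group shows the level before transformation. The labels call the cells proB-ALL and mention no sorting of transduced cells.

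BCR-ABL is a tyrosine kinase that is always active. A phosphorylated tyrosine in its BCR part binds Grb2, which brings the scaffold Gab2 and the RAS activator Sos1 and so opens the RAS and PI3K pathways, while Shc1 gives Grb2 a further docking site and CRKL is a prominent substrate of the kinase. Cbl is a ubiquitin ligase that is phosphorylated in BCR-ABL cells and marks active kinases for degradation, and Dok1 and Dok2 recruit inhibitors of RAS. The retrovirus supplies the fusion itself, so reads of Abl1 and Bcr may come from the mouse genes or from the virus. Their shares were not tested.

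Ikaros binds DNA at sites with the core GGGAA, and promoter windows with this core are shown for both fusion partners and for Crkl, the member that varied least. The windows are RefSeq's for build GRCm38.p6, run from 250 bases before to 50 bases after a transcript start and read 5′ to 3′ on the gene's strand, and capitals mark GGGAA or its reverse complement TTCCC.
Abl1, chr2:31759689-31759988, plus strand: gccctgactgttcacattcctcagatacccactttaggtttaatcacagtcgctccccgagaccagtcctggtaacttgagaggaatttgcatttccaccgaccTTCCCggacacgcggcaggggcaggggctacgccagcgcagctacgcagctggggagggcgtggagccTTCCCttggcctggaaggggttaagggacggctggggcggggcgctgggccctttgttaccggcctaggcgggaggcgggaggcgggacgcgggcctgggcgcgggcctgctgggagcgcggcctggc
Bcr, chr10:75060646-75060945, plus strand: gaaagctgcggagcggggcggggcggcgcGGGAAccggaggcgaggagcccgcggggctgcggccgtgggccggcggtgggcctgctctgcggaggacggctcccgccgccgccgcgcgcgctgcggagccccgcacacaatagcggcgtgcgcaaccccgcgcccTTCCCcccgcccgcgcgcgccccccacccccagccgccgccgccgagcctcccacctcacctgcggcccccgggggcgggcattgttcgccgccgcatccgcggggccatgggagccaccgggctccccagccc
Crkl, chr16:17451735-17452034, plus strand: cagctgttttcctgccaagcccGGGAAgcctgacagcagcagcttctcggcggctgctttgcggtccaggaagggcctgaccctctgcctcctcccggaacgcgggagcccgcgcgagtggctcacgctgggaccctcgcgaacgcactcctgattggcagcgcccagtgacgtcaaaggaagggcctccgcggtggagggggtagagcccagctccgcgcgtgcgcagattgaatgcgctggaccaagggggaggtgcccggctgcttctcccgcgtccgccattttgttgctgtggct
In all, 7 of the 10 members were matched to 10 windows, and 5 of these windows held the core on either strand, against 62.7% of all 32851 windows of this length. No window was matched to Gab2, Dok1 or Dok2. The window of Bcr held 2 cores and had a GC content of 82.3%, that of Crkl held 1 at 67.3%, and the Abl1 window shown held 2 at 67%. The other Abl1 window, which starts further downstream and overlaps the one shown, held 0 cores at 70%. The median window had a GC content of 52.7%. A core in these letters is a description and not a bound site.

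All 10 members were transcribed in every library, and their levels (RPKM, reads scaled to transcript length and library size, so that genes can be compared per length) spanned a mean of 6.68 for Sos1 to 68.2 for Abl1. Next to Abl1 came Bcr at 35.3, Crkl at 33.5, Grb2 at 27.7 and Dok1 at 26.4, followed by Cbl at 12.8, Shc1 at 11.5, Dok2 at 10.4 and Gab2 at 10.1. The highest member, Abl1, stood above the other 9 in each library. Abl1 was above 95.7% of all genes and Sos1 above 66.1%. In this order the values of neighbours did not overlap between Abl1 and Bcr, between Dok1 and Cbl, or between Gab2 and Sos1, and all other neighbours overlapped across libraries. RPKM values were deposited to 1 decimal without counts, so the depth behind each value is unknown.

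**Figure D1:**
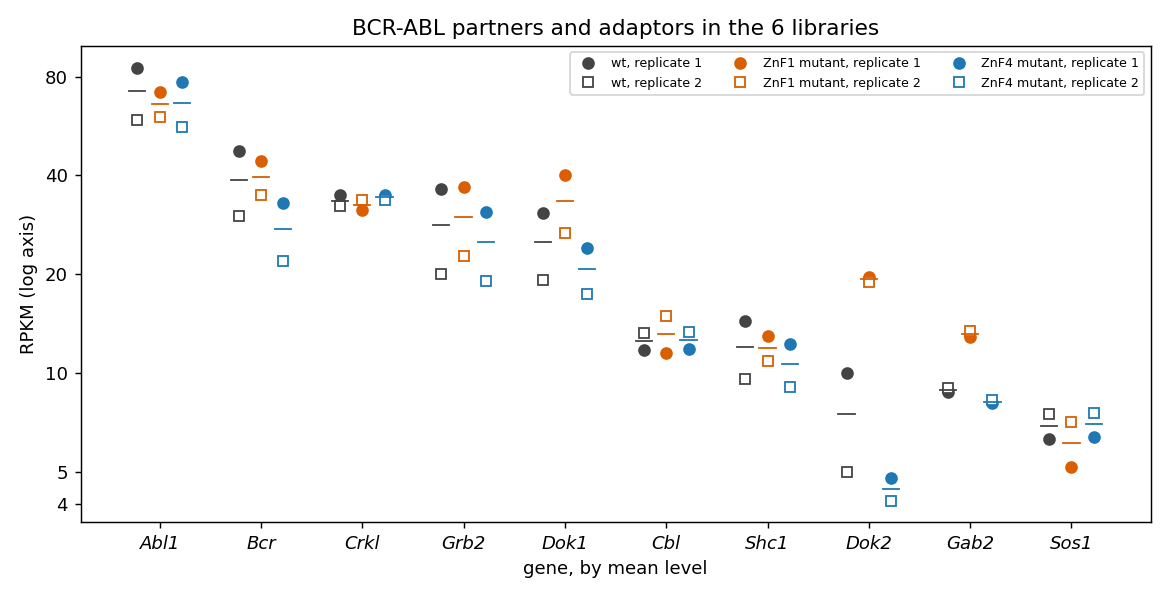
RPKM (log axis) of the 10 genes in the 6 libraries, ordered by mean level, with filled circles for replicate 1, open squares for replicate 2 and short bars for group means. Replicate 1 lies above replicate 2 in all groups for Abl1, Bcr, Grb2, Shc1, Dok1 and Dok2, and only Dok2 and Gab2 have both ZnF1 mutant libraries above all others.

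Libraries were compared with limma on log2(RPKM + 1), a scale that understates changes of low genes, in 1 fit of all 6 libraries and 11345 genes that reached 1 RPKM in 2 or more libraries. All 10 members passed that filter. The p-values were two-sided, and a gene was called at a Benjamini-Hochberg adjusted p under 0.05 over all genes. The fit without the replicate number is given first. Same-numbered replicates were alike across groups, and a fit with that number as a block is given beside the members where it changes a call, and by counts of calls for the other lists. In bulk RNA fewer cells of a type and less RNA per cell cannot be told apart. The replicates are called biological but not tied to separate animals, so p-values measure the spread between these libraries.

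Of the fusion partners, Abl1, a non-receptor tyrosine kinase, stood at 85.2 and 59 RPKM in wt replicates 1 and 2, 71.6 and 60.2 in the ZnF1 mutant and 77 and 56.3 in the ZnF4 mutant. The 3 groups overlapped, and every replicate 1 library was above every replicate 2 library. The log2 difference was −0.11 in the ZnF1 mutant (95% interval −0.77 to 0.55) and −0.11 in the ZnF4 mutant (−0.77 to 0.55), and neither passed (limma adjusted p = 1 in both). Of its 2 RefSeq rows, 1 held 99.6% of the level. The assignment of reads shared by overlapping transcripts was not given in the sources used here, so the rows do not measure isoforms.

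Bcr, which encodes a protein that regulates small GTPases, stood at 47.6 and 30.1 RPKM in wt, 44.4 and 35 in the ZnF1 mutant and 32.9 and 22 in the ZnF4 mutant. Both ZnF4 mutant libraries were below both ZnF1 mutant libraries, and each was below the wt library of its replicate number, at 0.691 and 0.731 of it. The difference was −0.48 against wt (SE 0.31, limma adjusted p = 0.81), and with the replicate block it passed (SE 0.1, limma adjusted p = 0.033). Leaving out 1 library without the block moved this difference to −0.16 (without wt replicate 1), −0.80 (without wt replicate 2), −0.76 (without ZnF4 mutant replicate 1) or −0.20 (without ZnF4 mutant replicate 2), fits that compare unlike replicate numbers. Against the ZnF1 mutant it was −0.53 (adjusted p = 0.46, or 0.015 with the block), and −0.81 to −0.25 when 1 library was left out, the ends being without ZnF4 mutant replicates 1 and 2. The intervals of Abl1 with the block were −0.34 to 0.13 in either mutant against wt. Whether both fusion partners differed from each other in response was not tested.

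The genes most alike to Bcr over the 6 libraries, by Pearson's r of log2(RPKM + 1), were E2f8 (0.999), a cell cycle transcription factor, Hmha1 (0.997) and Irs2 (0.995), an insulin receptor substrate. Those most alike to Abl1 were Zfp787 (0.998), Fem1a (0.998) and D130020L05Rik (0.996). With 6 libraries that share the replicate difference such values are common. At an r of at least 0.9 stood 545 genes for Bcr and 1101 for Abl1 of 11344 compared.

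Among the adaptors, Grb2, the link from tyrosine kinases to RAS, stood at 36.3 and 20.1 RPKM in wt, 37 and 22.7 in the ZnF1 mutant and 31 and 19.1 in the ZnF4 mutant. All replicate 1 libraries were above all replicate 2 libraries whatever the genotype. Its log2 differences were 0.1 in the ZnF1 mutant (95% interval −0.93 to 1.13) and −0.15 in the ZnF4 mutant (−1.18 to 0.89), and intervals with the block were −0.1 to 0.29 and −0.34 to 0.05.

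Gab2, the scaffold that binds PI3K and the phosphatase SHP2 downstream of Grb2, stood at 8.8 and 9 RPKM in wt, 12.9 and 13.5 in the ZnF1 mutant and 8.1 and 8.3 in the ZnF4 mutant. Both ZnF1 mutant libraries were above the other 4. The log2 difference in the ZnF1 mutant was 0.52 against wt (SE 0.14, limma adjusted p = 0.2, or 0.016 with the replicate block), and the level was 1.47 and 1.5 times that of wt within replicates 1 and 2. The ZnF4 mutant was 0.63 lower than the ZnF1 mutant (log2 difference −0.63, SE 0.14, adjusted p = 0.072, or 0.0044 with the block) and differed by −0.11 from wt (adjusted p = 1).

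Shc1, a docking adaptor for Grb2, stood at 14.4 and 9.6 RPKM in wt, 13 and 10.9 in the ZnF1 mutant and 12.3 and 9.1 in the ZnF4 mutant. Sos1, the exchange factor that loads RAS with GTP, stood at 6.3 and 7.5 RPKM in wt, 5.2 and 7.1 in the ZnF1 mutant and 6.4 and 7.6 in the ZnF4 mutant. The groups overlapped for both genes, with Shc1 higher in replicate 1 and Sos1 higher in replicate 2 of each group. Crkl, the CRK-like adaptor, was the steadiest member, at 34.8 and 32.2 RPKM in wt, 31.5 and 33.6 in the ZnF1 mutant and 35 and 33.8 in the ZnF4 mutant, a highest to lowest ratio of 1.11. None of these 3 genes passed in any comparison with either fit (limma adjusted p of 0.86 to 1 for Crkl without the block). The blocked 95% intervals for Crkl were −0.24 to 0.16 in the ZnF1 mutant and −0.17 to 0.24 in the ZnF4 mutant against wt.

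Of the restraining adaptors, Dok2 varied most of all members. It stood at 10 and 5 RPKM in wt, 19.7 and 19 in the ZnF1 mutant and 4.8 and 4.1 in the ZnF4 mutant. The ZnF1 mutant libraries were above, and the ZnF4 mutant libraries below, all others, though wt replicate 2, at 5, was close to the ZnF4 mutant. Dok2 fell by 1.90 on the log2 scale in the ZnF4 against the ZnF1 mutant (SE 0.31, limma adjusted p = 0.034), the only member called without the block. Leaving out any 1 of the 4 libraries compared ended the call, with log2 differences of −2 to −1.81 (adjusted p of 0.14 to 0.21), in fits that leave 1 library to stand for a genotype and assume that it varies like the others. Without a filter on low values the adjusted p was 0.058.

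Against wt, Dok2 differed by 1.32 in the ZnF1 mutant (SE 0.31, limma adjusted p = 0.16, or 0.022 with the replicate block) and by −0.58 in the ZnF4 mutant (SE 0.31, adjusted p = 0.65, or 0.14 with the block). The latter was −0.14 without wt replicate 1 and −1.02 without wt replicate 2. Within replicates 1 and 2 the ZnF1 mutant stood at 1.97 and 3.8 times wt. The other DOK member, Dok1, stood at 30.8 and 19.3 RPKM in wt, 40 and 26.7 in the ZnF1 mutant and 24.1 and 17.4 in the ZnF4 mutant. It had the same order of genotypes within each replicate, with the ZnF1 mutant at 1.3 and 1.38 times wt. The difference from wt was 0.41 (SE 0.33, adjusted p = 0.98, or 0.035 with the block), and the ZnF4 mutant differed from the ZnF1 mutant by −0.65 (adjusted p = 0.38, or 0.0053 with the block). Without the block, leaving out 1 library took the difference from wt to 0.73 (without wt replicate 1), 0.08 (without wt replicate 2), 0.12 (without ZnF1 mutant replicate 1) or 0.69 (without ZnF1 mutant replicate 2). The difference between the mutants then ranged from −0.93 to −0.37, the ends being without ZnF1 mutant replicates 2 and 1. Cbl stood at 11.8 and 13.3 RPKM in wt, 11.5 and 14.9 in the ZnF1 mutant and 11.9 and 13.4 in the ZnF4 mutant, and did not pass in any comparison.

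**Figure D2:**
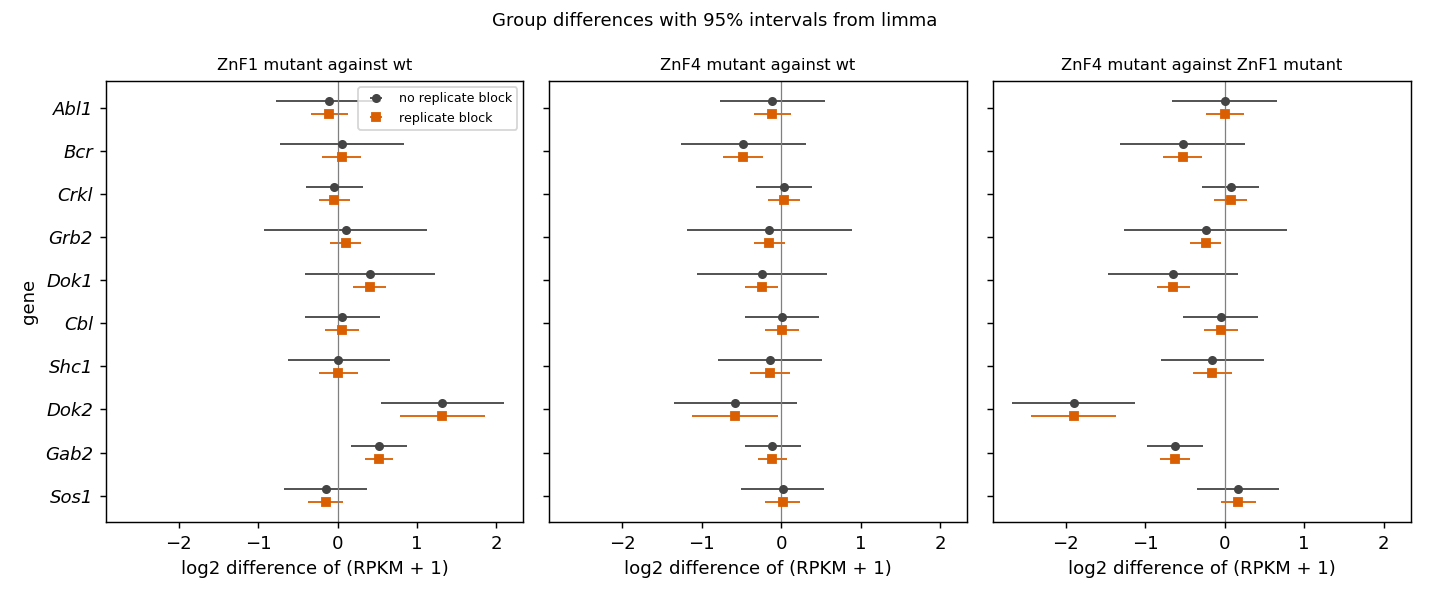
Log2 differences of (RPKM + 1) between groups for the 10 genes, with 95% intervals from limma, without (circles) and with (squares) the replicate block. In the ZnF1 mutant against wt the intervals of Gab2 and Dok2 lie above 0 in both fits and that of Dok1 only with the block. In every comparison shown the interval is narrower with the block.

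In counts, the ZnF1 mutant against wt gave 0 of 10 members called by limma without the block, where 0% of all genes were called. An unadjusted limma p under 0.05 was reached there by 1281 genes (11.3%), Gab2 and Dok2 among them. With the block 3 members were called, all higher, against 13.2% of all genes (10.4% higher and 2.88% lower). The ZnF4 mutant against wt gave 0 of 10, against 2.72% of all genes, and no member reached an unadjusted limma p under 0.05, against 1329 genes (11.7%). With the block 1 member, Bcr, was called lower, against 15.9% of all genes (8.02% higher and 7.92% lower). The ZnF4 against the ZnF1 mutant gave 1 of 10, lower, against 5.37% of all genes (1.61% higher and 3.75% lower). With the block 4 were lower (Bcr, Gab2, Dok1 and Dok2), against 35.1% (19.2% lower). The groups did not overlap for 2, 2 and 5 of the 10 members in these comparisons, against 31.1%, 31.7% and 43.5% of all genes tested. The median log2 difference of the members was 0.06, −0.12 and −0.2, and that of all genes −0.01, 0.04 and 0.04. The members' shares called without the block, and their shares without overlap, were within 2 of 10 genes of those of all genes. The 2 comparisons with wt share the wt libraries, and both comparisons of the ZnF1 mutant share its libraries.

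Most members also differed between replicates. In each genotype 6 members (Abl1, Bcr, Grb2, Shc1, Dok1 and Dok2) were lower in replicate 2, and 3 (Gab2, Sos1 and Cbl) were higher, where 71.3% of all genes tested differed 1 way in all 3 groups (44.3% lower and 26.9% higher). In the blocked fit 5 of the 10 were called lower in replicate 2 and 2 higher, against 52.5% of all genes (34.2% lower and 18.3% higher). Grb2 differed most, by −0.72 (SE 0.06, limma adjusted p = 0.0021), with replicate 1 at 1.81, 1.63 and 1.62 times replicate 2 in wt, ZnF1 mutant and ZnF4 mutant. Dok1 differed by −0.55 and Bcr by −0.51, while Sos1 differed by 0.27 and Cbl by 0.22 (adjusted p = 0.0032, 0.0059, 0.026 and 0.045).

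The sign of this difference ran with the base composition of the transcripts. Over 11188 of the 11345 genes with a GENCODE transcript, the Spearman rank correlation between GC content and the replicate difference was −0.742, a description across genes that share the same libraries. The median difference fell from 0.31 in the lowest of 5 equal GC bins (median 42.1%) to −0.53 in the highest (58.2%). Sos1, at 41% GC, and Cbl, at 46.9%, were on the side higher in replicate 2. Dok1 (58.3%), Bcr (57.7%), Dok2 (57.6%), Shc1 (57.2%) and Abl1 (56.2%) were on the other. Grb2, at 51.9%, differed by more than the quartiles of genes of like GC (−0.25 to 0.07), and Gab2, at 54.8%, hardly differed (0.04). The part of GC content in these values was not tested.

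**Figure D3:**
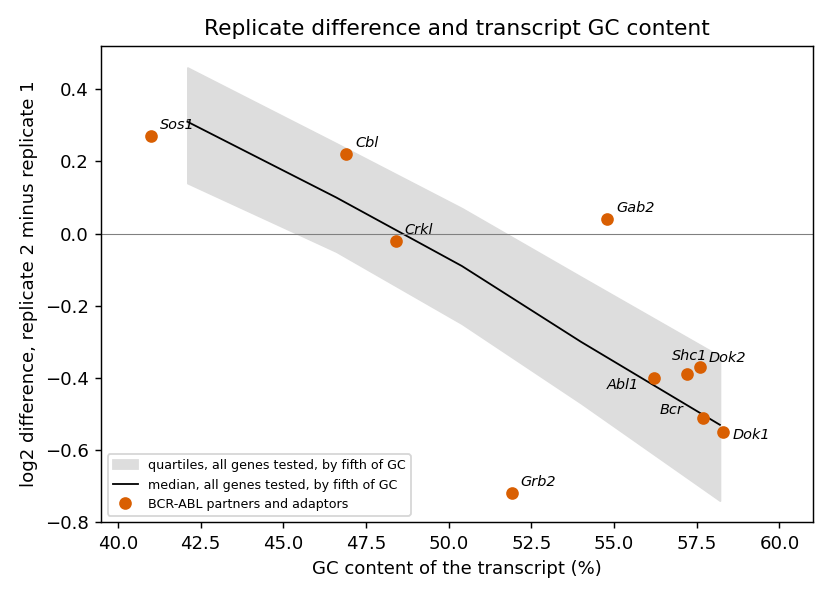
Log2 difference between replicate 2 and replicate 1 (fit with genotype and replicate) against transcript GC content in percent, for the 10 genes (points) and for all genes tested (line, median in 5 equal bins of GC content; band, quartiles). Most members lie near the median line, with Grb2 below the band and Gab2 above it.

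As a sum, monocyte and macrophage transcripts, like Dok2 and Gab2, were highest in both ZnF1 mutant libraries. The 13 monocyte and macrophage markers (Lyz2, Cd68, Csf1r and others, none at 0 in any library) summed to 1065 and 1184 RPKM in the ZnF1 mutant, 377 and 436.1 in wt, and 395.7 and 438.8 RPKM for the ZnF4 mutant. In the ZnF1 mutant against wt all 13 had positive differences, with a median of 1.36, and 0 passed, or 11 with the replicate block. Of all genes 0% passed there, or 10.4% higher with the block. Between the mutants all 13 had negative differences in the ZnF4 mutant, of which 8 were called lower (11 with the block), against 3.75% of all genes (19.2% with the block). The ZnF4 mutant against wt had 8 positive and 5 negative differences, with a median of 0.08 and 0 called (1 lower with the block). The shares of all genes called lower there were 1.3% and, with the block, 7.92%. The 10 stromal and endothelial markers summed to 266.8 and 152.8 RPKM in the ZnF1 mutant and to 71.1 to 79.8 in the other libraries, with 1 marker at 0 in each wt library and none at 0 elsewhere. In the ZnF1 mutant against wt all 10 had positive differences, with a median of 1.25, and 0 passed, or 8 with the block. Of these, Kdr, Col3a1 and Pdgfrb passed the filter only through the ZnF1 mutant. In the ZnF4 mutant against wt 6 were positive and 4 negative. Only Cdh5, which passed the filter through that mutant alone, was called without the block, where 1.43% of all genes were called higher. Pecam1 differed by −0.87 there (limma adjusted p = 0.058, or 0.0036 with the block). The 12 granulocyte markers did not follow the genotypes, at 534.9 RPKM in wt replicate 1 and 1640 in ZnF1 mutant replicate 2, and 1.3 to 54.9 in the other 4. Macrophages are known to express Dok1, Dok2 and Gab2. The part of these cells, or of stromal and endothelial cells, in the differences of the adaptors was not tested. The pro-B cell label was checked against its 14 markers, none at 0 in any library, which summed to 3033.7 to 5296.8 RPKM. Single markers differed between genotypes. In the ZnF4 mutant against wt 7 were positive and 7 negative, with Rag1 called higher (2.09, limma adjusted p = 0.023) and Cd72 lower (−1.01, adjusted p = 0.0453). In the ZnF1 mutant 11 were positive and 3 negative, with Rag1 at 2.08 (adjusted p = 0.092, or 0.0052 with the block). The 11 T and NK cell markers found, of 12 listed, summed to 17.6 to 55.7 RPKM, of which Lck, a kinase of lymphocytes, made up 15 to 53.4. The T cell genes Cd3e, Cd3g and Cd8a were listed at 0 in all 6 libraries, while the ZnF1 mutant libraries had 1.7 and 2 RPKM of Cd4 and the other 4 had at most 0.1.

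**Figure D4:**
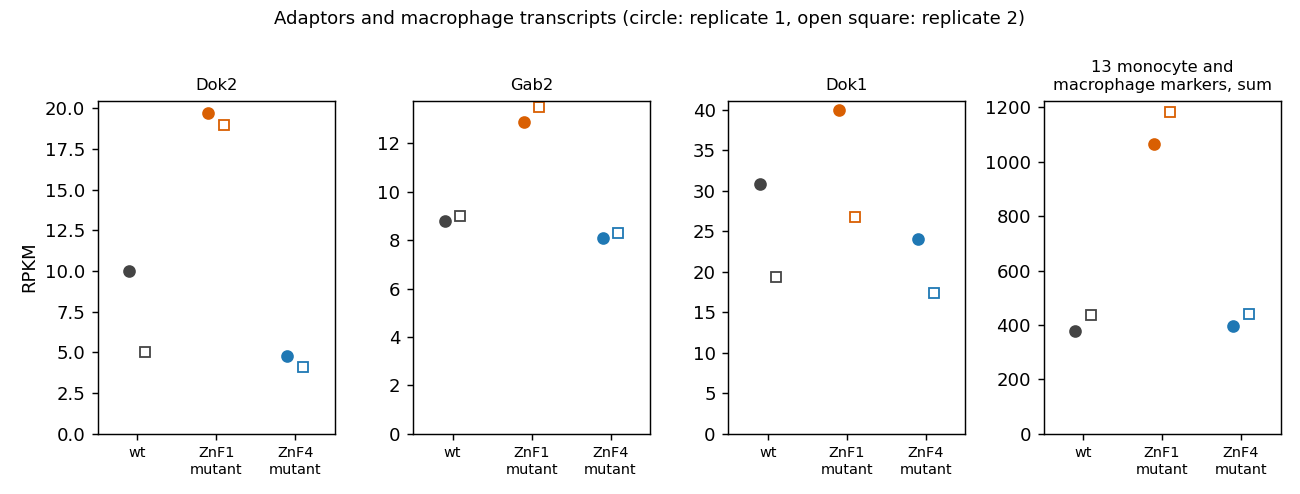
RPKM of Dok2, Gab2, Dok1 and the sum of 13 monocyte and macrophage markers in the 6 libraries (linear axes from 0, each panel on its own scale). Both ZnF1 mutant libraries are highest in every panel except that of Dok1, where wt replicate 1, at 30.8, lies above ZnF1 mutant replicate 2, at 26.7.

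Relatives of the members were measured alongside, 18 in the file and 11 of them past the filter. Levels per length were like those of the members for Crk, the relative of Crkl (28.2 RPKM on average), Abr, the relative of Bcr (23.2), Grap, the relative of Grb2 (23.1), Dok3 (22.4), Cblb (14.1) and Sos2 (8.5). Abl2 averaged 17.3, summed over 2 rows of like level that may share reads. Dok3, a DOK adaptor of B cells and macrophages, stood at 40.2 and 19.9 RPKM in wt, 37.3 and 21.5 in the ZnF1 mutant and 11.4 and 4.1 in the ZnF4 mutant. Both ZnF4 mutant libraries were below the other 4. Its difference of −1.88 against wt did not pass without the block (limma adjusted p = 0.24) and did with the block (adjusted p = 0.0018). The ZnF1 mutant stood at 0.928 and 1.08 times wt in replicates 1 and 2.

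Of the other GAB scaffolds, Gab3 fell by 1.02 in the ZnF4 against the ZnF1 mutant (SE 0.15, limma adjusted p = 0.029), at 0.6 and 0.7 against 2.6 and 2.1 RPKM, the only relative called without the block. Gab1 stood at 1.2 and 1.4 RPKM in wt, 3.2 and 3.9 in the ZnF1 mutant and 4.2 and 2.6 in the ZnF4 mutant (adjusted p = 0.16 and 0.15 against wt, or 0.04 and 0.043 with the block). Abr was higher in the ZnF4 mutant than in wt by 0.64 (adjusted p = 0.22, or 0.0052 with the block), while Bcr differed by −0.48. With the block 1 relative of the 11 tested was called higher and 1 lower in the ZnF1 mutant and 2 and 2 in the ZnF4 mutant against wt. Of all genes 13.2% and 15.9% were called there. Between the mutants the blocked fit called 2 relatives higher in the ZnF4 mutant (Abr and Abl2) and 3 lower (Dok3, Gab3 and Grap). Of all genes it called 15.9% higher and 19.2% lower, and 5.37% were called without the block.

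Downstream of Grb2 and Sos1, the RAS and ERK cascade list had 17 of 18 genes tested. Against wt 0 were called in either mutant, or 1 higher in the ZnF1 mutant and 1 higher and 1 lower in the ZnF4 mutant with the block. The medians were 0.01 and 0.11, against −0.01 and 0.04 over all genes. Of all genes 0% and 2.72% were called against wt and 5.37% between the mutants, or 13.2%, 15.9% and 35.1% with the block. Between the mutants 1 gene was called, or 2 higher and 2 lower with the block. Rasgrp1, a RAS exchange factor of lymphocytes that is activated by diacylglycerol, fell by 2.12 (SE 0.29, limma adjusted p = 0.027), from 12.5 and 16.1 to 3.5 and 1.7 RPKM, with wt between at 5.1 and 6. The ZnF1 mutant differed from wt by 1.22 for this gene (adjusted p = 0.17, or 0.0484 with the block), and Spred1, an inhibitor of RAF activation, followed at 0.35 (adjusted p = 1). Ksr1, a scaffold of the cascade, had the lowest p against wt in the ZnF4 mutant, with a difference of −0.69 (adjusted p = 0.26, or 0.04 with the block).

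Of the 18 PI3K and AKT genes, all tested, 0 were called in the ZnF1 mutant and 1 lower in the ZnF4 mutant against wt, while the blocked fit called 3 higher in the former and 1 higher and 4 lower in the latter. Their median differences were 0.13 and −0.01 against wt and −0.06 between the mutants, and those of all genes −0.01, 0.04 and 0.04. The shares of all genes called were 0% and 2.72% against wt and 5.37% between the mutants, or 13.2%, 15.9% and 35.1% with the block. Mtor, the kinase of the growth-promoting mTOR complexes, stood at 48.2 and 42.9 RPKM in wt, 62.4 and 61.2 in the ZnF1 mutant and 16.9 and 17.1 in the ZnF4 mutant. It fell by 1.37 against wt (SE 0.14, limma adjusted p = 0.019) and by 1.80 against the ZnF1 mutant (adjusted p = 0.011), and within replicates it stood at 0.351 and 0.399 of wt. The catalytic subunits Pik3cg and Pik3cb were lower in the ZnF4 than the ZnF1 mutant, with differences of −1.05 and −0.80 (limma adjusted p = 0.03 and 0.0498), and with Mtor they were the 3 called there, where the blocked fit called 1 higher and 5 lower. In the ZnF1 mutant against wt Pik3cb differed by 0.75 (adjusted p = 0.12, or 0.028 with the block) and Pik3r3, a regulatory subunit, by 0.56 (adjusted p = 0.23). Pik3cg stood at 13.1 and 15.2 RPKM in the ZnF4 mutant, 30.3 and 30.4 in the ZnF1 mutant, with wt at 23.1 and 26.5. Pik3cb stood at 0.6 and 0.5 RPKM in wt, 1.5 and 1.7 in the ZnF1 mutant and 0.4 and 0.6 in the ZnF4 mutant. Pik3r3 stood at 0.4 and 0.6 in wt, 1.2 and 1.2 in the ZnF1 mutant and 0.8 and 1.1 in the ZnF4 mutant. Both would have failed the filter of 1 RPKM without the ZnF1 mutant libraries, so their p-values are not independent of it.

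Among the 19 ABL binding proteins, CRK partners and cytoskeletal effectors, 0 were called against wt in either mutant. The blocked fit called 1 of each direction in the ZnF1 mutant, and 1 higher and 3 lower in the ZnF4 mutant. The medians were 0.03 and −0.08 against wt, and −0.16 between the mutants, where 1 gene was called (3 higher and 7 lower with the block). Dok3, also counted among the relatives, is among the lower genes there and in the ZnF4 mutant against wt with the block. Bcar1, added after its values were seen, is among those lower between the mutants. It stood at 0.9 and 0.5 RPKM in wt, 3.7 and 1.2 in the ZnF1 mutant and 0.7 and 0.3 in the ZnF4 mutant. Without the ZnF1 mutant libraries it would have failed the filter, so its p-value is not independent of it. Over all genes the medians were −0.01, 0.04 and 0.04. The shares called were 0%, 2.72% and 5.37% of all genes, or 13.2%, 15.9% and 35.1% with the block. Evl, an actin regulator of the Ena/VASP family, stood at 112.5 and 91.5 RPKM in wt, 102.6 and 91.5 in the ZnF1 mutant and 49.9 and 41.8 in the ZnF4 mutant. It fell by 1.07 in the ZnF4 against the ZnF1 mutant (limma adjusted p = 0.042), and the difference of −1.13 from wt had an adjusted p of 0.052 (limma), or 0.0015 with the block. Nedd9, a docking protein bound by CRK and CRKL, stood at 145.5 and 132.7 RPKM in wt and 92.8 and 91.3 in the ZnF1 mutant, a difference of −0.59 (adjusted p = 0.19, or 0.013 with the block). Pstpip2, a cytoskeletal adaptor of myeloid cells, differed by 0.73 there (adjusted p = 0.31, or 0.022 with the block).

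Of 20 kinases, phosphatases and brakes that act beside BCR-ABL, 0 were called in the ZnF1 mutant against wt, and 1 lower in the ZnF4 mutant. The blocked fit called 7 higher and 1 lower in the ZnF1 mutant, and 1 higher and 4 lower in the ZnF4 mutant. The medians were 0.17 and −0.17 against wt and −0.36 between the mutants, and those of all genes −0.01, 0.04 and 0.04. Against wt 0% and 2.72% of all genes were called, or 13.2% and 15.9% with the block. Between the mutants 5.37% of all genes were called, or 35.1% with the block (19.2% lower). Sla, a SRC-like adaptor that works with CBL to lower receptor levels, fell by 1.18 in the ZnF4 mutant against wt (SE 0.16, limma adjusted p = 0.032), at 9 and 9.3 against 20.5 and 23.7 RPKM. In the ZnF4 against the ZnF1 mutant 5 were called, all lower (11 lower and 1 higher with the block). Among them were the SRC family kinases Lyn and Fgr, the kinase Syk (listed as Sykb) and Sla, of which Fgr falls outside the rule for named genes and was added after its values were seen. Fgr was low, at 1.2 and 0.4 RPKM in wt, 2.8 and 3.5 in the ZnF1 mutant and 0.5 and 0.4 in the ZnF4 mutant. It would have failed the filter without the ZnF1 mutant libraries, as would Src, which was called only with the block. Their p-values are therefore not independent of the filter. Lyn fell by 0.90 (adjusted p = 0.032), from 46.4 and 49.8 to 26.3 and 24.5, with wt at 26.6 and 27.5. The ZnF1 mutant differed from wt by 0.81 for Lyn (adjusted p = 0.1, or 0.0082 when blocked). Macrophages also express Fgr and Lyn, and their part in these differences was not tested.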

How the data were processed

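Polyadenylated RNA of 6 libraries was sequenced. The authors deposited RPKM values per RefSeq transcript, to 1 decimal, per the file headers. TopHat, bedtools and the mouse build mm9 are named, without versions, per the submitters' processing notes. Strand use and the handling of shared reads are not given in the sources used here. Depth is unknown, and RPKM summed to 287007 to 345766 per library. Rows were summed per symbol (22099 genes), 39 of 40 symbols damaged by a spreadsheet were restored through their accession, and 1 row without a gene was left out. Exons of the members overlapped another gene's in GENCODE only for Abl1 (94 bases).

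Libraries were grouped by title. Groups were tested with limma 3.58.1 (R 4.3.3, intensity trend) on log2(RPKM + 1) over 11345 genes, with 3 residual and 2.32 prior degrees of freedom (2 and 3.06 with the replicate block). The fit without the block was first tried on simulated data with independent noise in each library. A difference shared by same-numbered libraries was not simulated, and the fit with the block was not tried this way. Deviations of same-numbered libraries from group means correlated at 0.5 to 0.754 across genes in the 3 pairs of groups. The labels give the numbers and no shared origin. GC content came from GENCODE transcripts matched by RefSeq accession (98.6% of genes tested). The members, gene lists and tests were chosen with earlier results of these data known. All 10 members were named, their relatives by level, and from each other list the called genes in order of p, at most 4, or the 2 lowest p where none was called. Some results under this rule are not reported here. Alternatives changed the pseudocount, filter, row choice, scaling, trend, block and libraries.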

Additional observations from a re-analysis of the deposited data

How the results depend on the processing

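The members called over all genes depended mainly on the replicate block, which raised the counts from 0 to 3 (ZnF1 mutant against wt), from 0 to 1 (ZnF4 mutant against wt) and from 1 to 4 (ZnF4 against ZnF1 mutant). In the last comparison the count was 0 without a filter on low values and 0 without wt replicate 1 and ZnF1 mutant replicate 2, the libraries with most granulocyte transcripts, an alternative chosen after seeing the data. Leaving out 1 library gave counts of 0 to 0, 0 to 0 and 0 to 1. Fewer libraries leave fewer degrees of freedom, and fits that lose 1 library compare unlike replicate numbers. Counts over all genes differed more, with 309 and 609 called in the comparisons of the ZnF4 mutant with wt and with the ZnF1 mutant, and 1809 and 3979 with the block (1502 in place of 0 for the ZnF1 mutant against wt). In a fit of the 4 libraries compared they were 131 and 324, among genes of at least 5 RPKM 176 and 323, and without the granulocyte-rich pair 0 and 0. Leaving out 1 library gave 0 to 119 and 0 to 306, and without either ZnF4 mutant library no gene was called against wt, while 0 to 4 were called between the mutants without any 1 of their 4 libraries. Genes named that are not members, such as Mtor and Lyn, were not refitted under these alternatives other than the block. Of 450 member values under the 15 alternatives, 396 kept direction and side of the threshold, 7 passed anew, 6 lost it and 41 changed sign, none of them among values called without the block.

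Sign changes came with equal library medians for Shc1 in the ZnF1 mutant against wt (−0.01). Without the granulocyte-rich pair, Abl1 and Cbl stood at 0.28 and −0.19 in the ZnF1 mutant against wt. In the ZnF4 mutant against wt Abl1, Grb2, Shc1, Sos1, Cbl and Dok1 stood at 0.16, 0.27, 0.13, −0.09, −0.07 and 0.08, and Cbl between the mutants at 0.12. The cause was not tested, though this fit compares unlike replicates. Leaving out single libraries gave, in the ZnF1 mutant against wt, −0.37 to 0.15 for Abl1, −0.27 to 0.38 for Bcr, −0.11 to 0.23 for Cbl, −0.09 to 0.01 for Crkl, −0.31 to 0.51 for Grb2, −0.25 to 0.28 for Shc1 and −0.35 to 0.04 for Sos1. In the ZnF4 mutant against wt it gave −0.37 to 0.16 for Abl1, −0.07 to 0.09 for Cbl, −0.02 to 0.09 for Crkl, −0.57 to 0.08 for Dok1, −0.56 to 0.27 for Grb2, −0.41 to 0.13 for Shc1 and −0.09 to 0.13 for Sos1. In the ZnF4 against the ZnF1 mutant it gave −0.22 to 0.23 for Abl1, −0.22 to 0.12 for Cbl, −0.58 to 0.1 for Grb2, −0.35 to 0.04 for Shc1 and −0.02 to 0.36 for Sos1.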
